A study of Mus musculus with 6 samples.

Results

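Srebf1 and the genes of de novo lipogenesis, the making of fatty acids from carbohydrate, were examined in mouse liver on Affymetrix expression arrays. The 10 genes were chosen by symbol: the regulators Srebf1, Mlxipl and Thrsp, the enzymes Acly, Acaca, Acacb, Fasn, Scd1 and Elovl6, and the NADPH-producing enzyme Me1. They are 10 of the 12393 genes that had a probe set with 1 symbol, and they were measured by 18 probe sets. The study compared 3 livers injected with an adenoviral TFEB vector and 3 livers of mice without injection, each on its own array. All 6 mice were wild type, of background strain C57 and 1 month old. The labels name neither an empty vector, nor the promoter that drives TFEB, nor the feeding state at harvest, so injection, vector and TFEB cannot be told apart, and the part of feeding in these feeding-responsive genes was not tested.

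In the liver, insulin and carbohydrate raise lipogenesis through a pair of transcription factors. Srebf1 encodes the sterol regulatory element-binding protein SREBP-1, which is released from the endoplasmic reticulum membrane by cleavage, and Mlxipl encodes ChREBP, which responds to sugar metabolites and binds DNA with its partner Mlx. Their target enzymes cleave citrate to acetyl-CoA, carboxylate it to malonyl-CoA, assemble palmitate and then elongate and desaturate it. TFEB is a transcription factor of lysosomal and autophagy genes and binds E-box sequences.

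Most transcripts of this pathway were lower in TFEB-injected livers, and 1 was higher. By limma, with p-values adjusted by the Benjamini-Hochberg method over all genes and a threshold of 0.05, 7 of the 10 genes fell (Srebf1, Mlxipl, Thrsp, Acly, Fasn, Elovl6 and Me1), 1 rose (Acacb) and 2 did not pass (Acaca and Scd1). Over all genes 28.1% were called, 13.9% as lower and 14.2% as higher. The 3486 calls over all genes became 2831 in a fit of only the genes at or above the median level. That fit kept 9 of the 10 genes and called 8, so 28.1% is not the share among genes of like level. The median difference, injected minus not-injected on the log2 scale, was -0.75 over the 10 genes and -0.049 over all genes. The injected livers were all lower than any not-injected liver in 8 of the 10 genes and all higher in 1, while over all genes the groups were apart in 46.2%, with injected livers below in 26.1% and above in 20.1%.

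The 45 probe sets of spike-in controls also read lower in injected arrays, with a median difference of -0.40 and a range of -0.57 to -0.02, and in 41 of them the groups were apart with the injected arrays below. The part of labelling or hybridisation in the differences given here was not tested. The 7 measured hepatocyte markers, such as Alb and Ttr, held 0 called genes, and their mean log2 value was 14.53 to 14.59 in injected and 14.62 to 14.64 in not-injected livers. These list means were apart, with the injected livers below. They are close to the highest values on each array (15.09 to 15.20), and whether differences are compressed there was not tested. Lipogenic enzymes are also abundant in fat tissue. Of 6 measured adipocyte markers 1 was called, the lipid droplet gene Cidec (2.27 ± 0.33, SE, higher in injected livers). The defining adipocyte markers Adipoq and Lep read 3.96 to 4.40 in injected and 4.11 to 4.37 in not-injected livers, below the lower quartile of every array (5.46 to 5.56). Of the others, Retn read -0.08, Lipe 0.24 and Fabp4 0.89 (8.61 to 10.10 in injected and 8.33 to 8.83 in not-injected livers), and none of these 3 passed. The adipocyte list means were 6.08 to 6.39 in injected and 5.61 to 5.84 in not-injected livers, so the groups were apart. Of the sinusoidal endothelial markers 4 of 7 rose (Stab2, Lyve1, Pecam1 and Clec4g), with list means of 8.77 to 8.98 in injected and 8.21 to 8.29 in not-injected livers. The other marker lists had 2 of 7 higher (Cd68 and Cd5l) and 1 of 7 lower (Marco) for Kupffer cells, 1 of 7 lower (Reln) for stellate cells, 0 of 5 called for cholangiocytes and 0 of 7 called for lymphocytes. The part of cell composition in the differences was not tested, and in whole liver fewer cells of a type and less RNA per cell cannot be told apart.

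**Figure D1:**
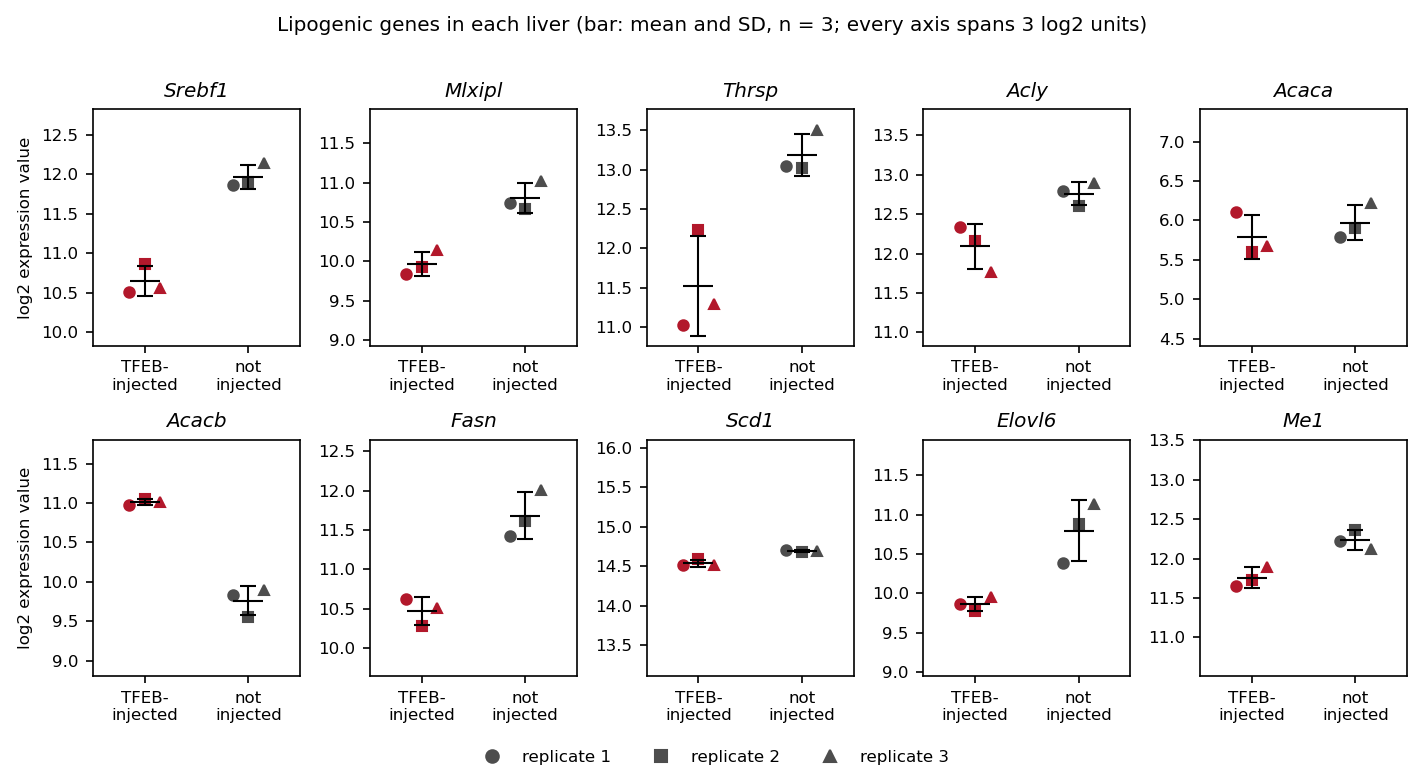
Log2 expression value of each of the 10 genes in each liver, TFEB-injected (red) and not injected (grey), with the mean and SD of 3 livers, on axes that all span 3 log2 units. Srebf1, Thrsp and Fasn lie lower in every injected liver, Acacb lies higher in every injected liver, and the groups overlap for Acaca.

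Among the regulators, Srebf1 had 10.51, 10.86 and 10.56 on the log2 scale in injected livers, against 11.86, 11.90 and 12.14 in not-injected livers. The groups were apart by more than the spread within either. Its level fell 2.50-fold, a difference of -1.32 ± 0.12 (SE, n = 3 each, limma adjusted p = 0.000413), and 0.476% of all genes had a lower difference. The gene is transcribed from alternative first exons into the SREBP-1a and SREBP-1c forms, and its single probe set is not assigned to either form in the annotation used here. Mlxipl read 9.84, 9.93 and 10.14 in injected livers, against 10.74, 10.66 and 11.02 in not-injected livers. It fell 1.79-fold (-0.84 ± 0.12, SE, limma adjusted p = 0.0025), and again the groups did not overlap.

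Thrsp encodes Spot 14, a small acidic protein that promotes lipogenesis and responds to thyroid hormone and carbohydrate. Its brighter probe set read 11.03, 12.24 and 11.29 in injected livers, against 13.05, 13.02 and 13.50 in not-injected livers. It had the lowest difference of the 10 genes, a 3.18-fold fall (-1.67 ± 0.30, SE, limma adjusted p = 0.00656), and also the widest spread among injected livers (SD 0.64). Injected replicate 2 stood closest to the not-injected livers, and without it the difference was -2.03 (limma adjusted p = 9.87e-05). The other probe set showed the same order of livers, with 9.36, 10.53 and 9.58 in injected and 11.47, 11.29 and 11.94 in not-injected livers, and a difference of -1.74.

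The sequence around an annotated start is shown for 5 of these genes: Srebf1, Mlxipl, Thrsp and Fasn, which fell, and Acacb, which rose. The windows of Acly, Elovl6 and Me1, which also fell, are not printed. Of the 3 Srebf1 starts, the 1 shown is the only one with both an NF-Y box and an Sp1 box. RefSeq windows of 300 bases (GRCm38.p6, from 250 bases before to 50 bases after the start) were found for 9 of the 10 genes, all but Scd1, and gave 13 starts. The windows are chr11:60210422-60210721 on the minus strand for Srebf1 (the most downstream of 3 listed starts), chr5:135089640-135089939 on the plus strand for Mlxipl (the upstream of its listed starts), chr7:97417501-97417800 on the minus strand for Thrsp, chr11:120824498-120824797 on the minus strand for Fasn and chr5:114165268-114165567 on the plus strand for Acacb. Each is written 5′ to 3′ along the gene's own strand, and capitals mark matches on either strand to the E-box CACGTG, the sterol element core TCACNCCA, the NF-Y box CCAAT or the Sp1 box GGGCGG. The longer E-box TCACGTG, which overlaps the E-box, was also searched and had 0 matches in the 13 windows.
Srebf1: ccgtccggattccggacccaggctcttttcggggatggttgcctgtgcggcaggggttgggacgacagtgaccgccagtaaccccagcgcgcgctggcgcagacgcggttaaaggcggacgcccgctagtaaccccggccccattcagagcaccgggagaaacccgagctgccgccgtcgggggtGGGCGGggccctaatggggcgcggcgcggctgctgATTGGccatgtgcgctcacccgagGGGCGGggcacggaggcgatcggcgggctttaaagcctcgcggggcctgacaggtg
Mlxipl: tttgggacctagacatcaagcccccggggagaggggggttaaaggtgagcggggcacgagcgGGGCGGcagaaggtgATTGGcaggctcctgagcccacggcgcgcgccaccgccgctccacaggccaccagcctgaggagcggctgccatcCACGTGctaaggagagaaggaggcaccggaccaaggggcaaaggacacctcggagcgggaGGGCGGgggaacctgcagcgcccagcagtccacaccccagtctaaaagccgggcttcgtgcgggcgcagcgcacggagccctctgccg
Thrsp: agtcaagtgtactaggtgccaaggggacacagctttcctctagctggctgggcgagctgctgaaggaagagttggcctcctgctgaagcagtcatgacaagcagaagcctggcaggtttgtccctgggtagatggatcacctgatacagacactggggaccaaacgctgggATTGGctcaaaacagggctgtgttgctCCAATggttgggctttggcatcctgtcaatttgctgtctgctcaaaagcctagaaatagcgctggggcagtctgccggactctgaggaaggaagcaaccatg
Fasn: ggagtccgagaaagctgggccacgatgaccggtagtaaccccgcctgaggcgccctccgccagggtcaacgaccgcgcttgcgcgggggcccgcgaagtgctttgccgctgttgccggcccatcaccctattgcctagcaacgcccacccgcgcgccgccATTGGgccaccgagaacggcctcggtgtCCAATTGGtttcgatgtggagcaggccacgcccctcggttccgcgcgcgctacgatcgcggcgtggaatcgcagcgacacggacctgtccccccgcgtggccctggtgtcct
Acacb: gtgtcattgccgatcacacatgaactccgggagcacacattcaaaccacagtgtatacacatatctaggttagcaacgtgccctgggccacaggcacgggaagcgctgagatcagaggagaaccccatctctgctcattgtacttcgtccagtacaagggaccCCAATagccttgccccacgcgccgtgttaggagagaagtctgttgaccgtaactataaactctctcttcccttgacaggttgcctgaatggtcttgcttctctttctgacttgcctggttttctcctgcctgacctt

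The NF-Y box was matched in 8 of the 13 windows and in 37.4% of all 32851 RefSeq windows of this length. NF-Y is a general CCAAT-binding factor that acts beside SREBP at many lipid gene promoters. Fasn had 3 matches, between 90 and 55 bases before the start, of which 2 overlap each other, and Thrsp had 2, at -79 to -75 and -52 to -48. In the Srebf1 window shown, 1 NF-Y box at -30 to -26 lay between 2 Sp1 boxes at -65 to -60 and -6 to -1. Acacb, which rose, also had 1 NF-Y box, at -87 to -83, so this motif was found in windows of genes of both directions. The Acacb start used here, at base 114165518 of chromosome 5, lies inside the gene's locus, which begins at base 114146321. Its window is therefore not at the 5′ end of the locus. This also holds for printed windows of genes that fell. On the minus strand, the Fasn start, at base 120824547 of chromosome 11, lies inside a locus that begins at base 120825166. The Srebf1 start shown, at base 60210471, lies inside a locus that begins at base 60224186, and so do its other listed starts. Sp1 boxes were matched in 5 windows (35.7% of all windows), the E-box in 1, that of Mlxipl at -98 to -93 (7.15% of all windows), and the sterol element core in 1, the second start of Mlxipl (4.36% of all windows). The longer E-box occurred in 3.77% of all windows. The windows of Acaca and Elovl6 held none of these motifs. The Elovl6 start is the first base of its locus. The Acaca start, at base 84195438 of chromosome 11, lies inside its locus, which begins at base 84129635, so its 5′ end was not searched. These matches are letters in a short window and do not show binding.

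**Figure D2:**
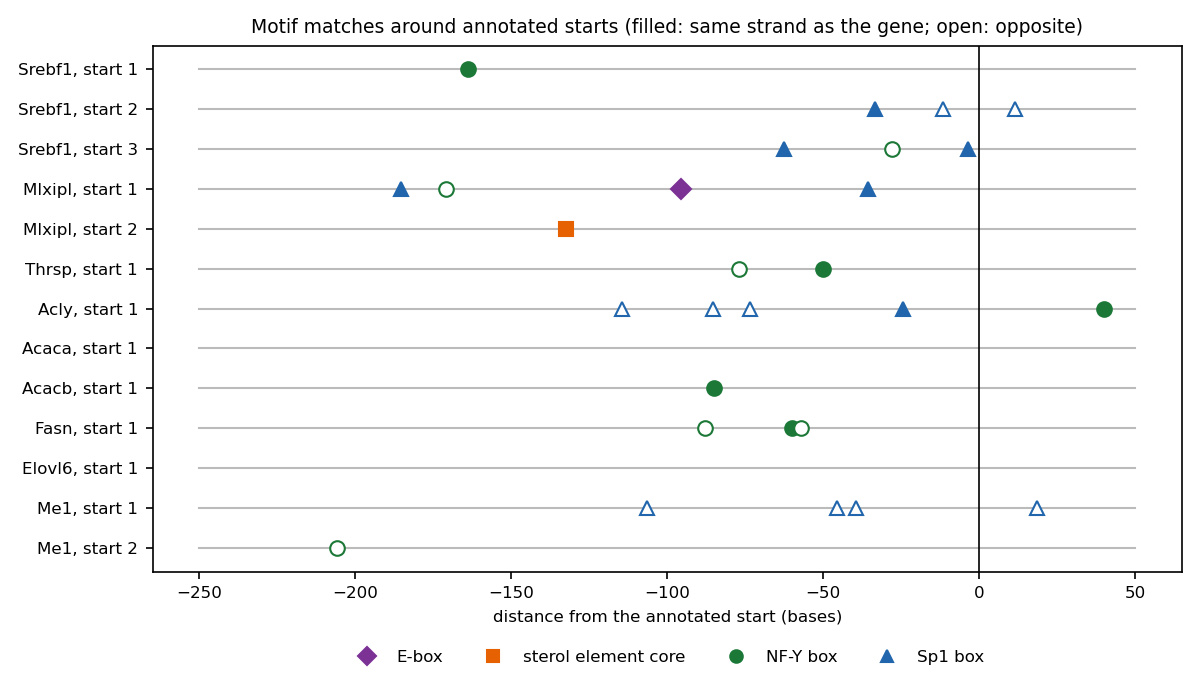
Positions of motif matches in the 13 windows, as distance in bases from the annotated start, with filled symbols on the strand of the gene and open symbols on the opposite strand. NF-Y boxes lie in 8 of the 13 windows, Acacb among them, and the 1 E-box lies at the first start of Mlxipl.

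The enzymes are described in the order of the pathway. Acly encodes ATP citrate lyase, which makes cytosolic acetyl-CoA from citrate. Its brightest probe set read 12.34, 12.16 and 11.77 in injected livers, against 12.79, 12.60 and 12.89 in not-injected livers, with no overlap. This was a 1.59-fold fall (-0.67 ± 0.15, SE, limma adjusted p = 0.0152), and the call was lost without not-injected replicate 3 (-0.60, limma adjusted p = 0.0589). Acly had 5 probe sets in all. In the fit over all 20380 probe sets with 1 symbol, in which 26.0% were called, 13.1% as lower and 12.9% as higher, 4 of the 5 fell, by 0.60 to 1.30. The largest of these, a difference of -1.30, came from a dim probe set that read 3.98 to 4.45 in injected and 5.33 to 5.72 in not-injected livers, at or below the lower quartile in injected arrays, so its size is inexact. The one that did not pass read 3.34 to 3.50 in injected and 3.60 to 3.74 in not-injected livers, near the lowest values on these arrays. The brightest of the 5 carries the x suffix, which Affymetrix gives to sets with probes that may also match other transcripts, while the next brightest, without that suffix, differed by -0.60 ± 0.15 (SE).

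Acetyl-CoA carboxylase, which makes malonyl-CoA, is encoded by a pair of genes, of which only Acacb was called. Acacb encodes ACC2, the form attached to mitochondria, whose malonyl-CoA inhibits fatty acid entry through Cpt1a. It read 10.98, 11.05 and 11.02 in injected livers, against 9.83, 9.56 and 9.90 in not-injected livers. It rose 2.39-fold (1.26 ± 0.10, SE, limma adjusted p = 0.000234), the SD among injected livers was 0.03, and 98.0% of all genes had a lower difference. Acaca encodes ACC1, the cytosolic form that feeds fatty acid synthesis. Its single probe set read 6.11, 5.60 and 5.67 in injected livers, against 5.79, 5.91 and 6.22 in not-injected livers. The groups overlapped, the difference was -0.18 with a 95% interval of -0.55 to 0.20 (limma adjusted p = 0.439), and it moved between -0.34 without injected replicate 1 and -0.05 without not-injected replicate 3.

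The ratio of Acacb to Acaca within an array is a test of unequal change. It was 4.87, 5.45 and 5.35 on the log2 scale in injected livers, against 4.04, 3.65 and 3.68 in not-injected livers. The ratio was higher in all 3 injected livers than in any not-injected liver, by 1.43 (two-sided exact permutation p = 0.1, the smallest that 20 assignments allow). Acaca lay close to the lower quartile of the arrays (5.46 to 5.56), where RMA compresses values, so the ratio is inexact. Whether a change of Acaca was understated was not tested.

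Fasn encodes fatty acid synthase, which builds palmitate from malonyl-CoA. It read 10.62, 10.28 and 10.51 in injected livers, against 11.42, 11.61 and 12.01 in not-injected livers. The fall was 2.32-fold (-1.21 ± 0.16, SE, limma adjusted p = 0.002), with groups apart. Elovl6, the elongase that extends palmitate to stearate, read 9.87, 9.77 and 9.95 in injected livers, against 10.38, 10.88 and 11.13 in not-injected livers. Its fall was 1.90-fold (-0.93 ± 0.18, SE, limma adjusted p = 0.00838), and its other probe set fell by 0.84. The not-injected livers of Elovl6 spread more (SD 0.39) than the injected ones (SD 0.09).

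Scd1 encodes the stearoyl-CoA desaturase that introduces the double bond of oleate. Its brighter probe set read 14.51, 14.59 and 14.51 in injected livers, against 14.70, 14.68 and 14.69 in not-injected livers. The groups did not overlap, yet the difference of -0.15 ± 0.06 (SE) did not pass (limma adjusted p = 0.0926). These values are close to the highest on each array (15.09 to 15.20), and whether differences are compressed there was not tested. The dimmer probe set read 11.41, 11.81 and 11.19 in injected livers, against 12.09, 11.79 and 11.98 in not-injected livers, and its difference of -0.48 had a 95% interval of -0.85 to -0.12 (limma adjusted p = 0.058). With the mean of both probe sets Scd1 read -0.32 and passed (limma adjusted p = 0.0472).

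Me1 encodes the cytosolic malic enzyme, a source of NADPH for fatty acid synthesis. Its brighter probe set read 11.65, 11.73 and 11.90 in injected livers, against 12.23, 12.37 and 12.12 in not-injected livers, a 1.40-fold fall (-0.48 ± 0.09, SE, limma adjusted p = 0.00897). The other probe set read 11.44, 11.33 and 11.67 in injected livers, against 11.46, 11.63 and 11.66 in not-injected livers. There the groups overlapped and the difference was -0.10, with a 95% interval of -0.34 to 0.14. The sets of Me1 therefore gave different calls, and the difference between them was not tested. Over all 18 probe sets of the 10 genes, 12 fell, 1 rose and 5 did not pass, where 13.1% of all probe sets were called as lower and 12.9% as higher.

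**Figure D3:**
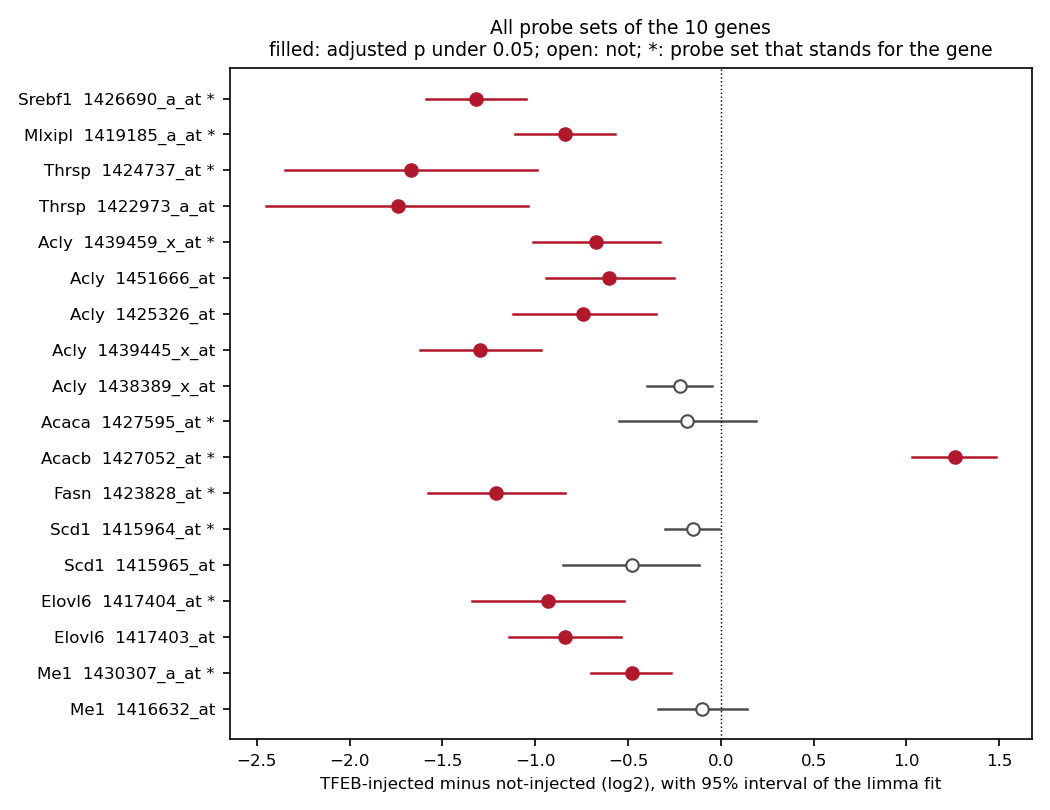
Difference of each of the 18 probe sets on the log2 scale, TFEB-injected minus not-injected, with the 95% interval of the fit over all probe sets with 1 symbol. The 12 sets that fell lie left of 0, the set of Acacb lies right of 0, and the 5 open symbols are 1 set each of Acly, Acaca and Me1 and both sets of Scd1.

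The order of livers within a group was also compared. Not-injected replicate 3 was the highest not-injected liver in 8 of the 10 genes, all but Scd1 and Me1, while over all genes it was the highest in 28.9%. Acacb, the gene that rose with injection, was among these 8, and so was Acaca. Among injected livers no array led in this way, with 3, 4 and 3 of the 10 genes highest in replicates 1, 2 and 3. Without not-injected replicate 3 the differences were smaller for Fasn (-1.04), Elovl6 (-0.76) and Mlxipl (-0.73), and these 3 still passed. On the genome, 4 of the 10 genes lie on chromosome 11 (Srebf1, Acaca, Acly and Fasn) and 2 on chromosome 5 (Mlxipl and Acacb).

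Within the set, the pattern of Fasn over the 6 arrays was the closest to that of Srebf1, with a root mean square difference of 0.233 log2 units after each gene's own mean was removed, followed by Mlxipl (0.283), Elovl6 (0.293) and Thrsp (0.322). Outside the set, the 5 closest genes were Tat (0.0957), Ercc8 (0.108), Apon (0.109), Keg1 (0.11) and Cpox (0.112). Tat encodes tyrosine aminotransferase, Ercc8 a DNA repair factor, Apon an apolipoprotein and Cpox an enzyme of haem synthesis. Tat read 11.29, 11.44 and 11.36 in injected livers, against 12.72, 12.73 and 13.00 in not-injected livers. Their differences were -1.45 to -1.17 with the groups apart, which follows from choosing them for their likeness to Srebf1.

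Related genes were counted in 9 lists, with 108 measured genes in all, of which 22 rose, 31 fell and 55 did not pass. That is 49.1% called, against 28.1% of all genes, and the shares by list ran from 33.3% for SREBP processing to 80.0% for the ChREBP targets. Genes at or above the median level were called more often than all genes. Fitted alone, they gave 2831 calls, against 3486 over all genes. They held 96 of the 108 listed genes, of which 62 were called. The share of 28.1% is therefore not that of genes of like level. The median over the 108 genes was -0.11. Among the 9 genes of SREBP processing and its partners, 1 rose, 2 fell and 6 did not pass, with a median of -0.16, and the share called (33.3%) was near that of all genes (28.1%). Tmem97, a sterol-responsive membrane protein, rose by 0.54 ± 0.10 (SE). Sec24d, a COPII coat subunit, fell by 0.36 ± 0.07, and the site-1 protease gene Mbtps1 fell by 0.21 ± 0.06. The call of Mbtps1 was lost whichever of the 6 arrays was left out (adjusted p up to 0.13), and its other 2 probe sets read -0.06 and 0.17. With the mean of its sets Mbtps1 read -0.03 (limma adjusted p = 0.72). Scap, the escort protein of SREBPs, read 0.07, and the paralogue Srebf2 read -0.14 (limma adjusted p = 0.133).

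Of 15 regulators of lipogenic transcription 6 fell, 1 rose and 8 did not pass, with a median of -0.21. Mlx, the partner of ChREBP, read 7.96, 7.95 and 7.97 in injected livers, against 8.17, 8.27 and 8.27 in not-injected livers. That fall of 0.28 ± 0.06 lost its call without injected replicate 1 (limma adjusted p = 0.0501), not-injected replicate 2 (limma adjusted p = 0.0597) or not-injected replicate 3 (limma adjusted p = 0.0643). Rxra, the partner of the liver X receptors, fell by 0.32 ± 0.07, and the NF-Y subunit Nfyb by 0.43 ± 0.08. The other probe set of Rxra read -0.25 and did not pass. The repressor Bhlhe40 rose 1.99-fold (0.99 ± 0.11, limma adjusted p = 0.000889), with 10.96, 10.63 and 10.92 in injected livers, against 9.73, 9.95 and 9.85 in not-injected livers. The nuclear receptor gene Nr0b2 (-1.03, SHP), Klf15 (-0.54) and Nr1h3 (-0.24, the liver X receptor alpha) were the other genes that fell. The groups overlapped for Nr0b2, with 8.89, 9.56 and 8.56 in injected livers, against 10.21, 9.56 and 10.34 in not-injected livers. Nr0b2 and Klf15 lost their calls when any array other than injected replicate 2 or not-injected replicate 2 was left out (adjusted p up to 0.108 and 0.0897), and Nr1h3 when any array other than injected replicate 3 was left out (adjusted p up to 0.154). Of the 7 called genes in this list, the count was 3 without injected replicate 1 or not-injected replicate 3 and 4 without not-injected replicate 1.

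The insulin signalling list had 5 of 14 genes higher, 1 lower and 8 below the threshold for a call, with a median of 0.26. The insulin receptor substrate Irs1 fell 2.11-fold (-1.08 ± 0.10, SE), with 9.77, 9.73 and 10.03 in injected livers, against 10.81, 10.95 and 11.02 in not-injected livers. Trib3, a pseudokinase that binds Akt, rose 2.07-fold (1.05 ± 0.19) and the kinase gene Pdpk1 rose by 0.55 ± 0.08. Pik3r1, the regulatory subunit of phosphoinositide 3-kinase, rose by 0.82 ± 0.15, but 1 of its other 2 probe sets fell by 0.25, and with the mean of all its sets it read 0.24 (limma adjusted p = 0.052). The other 2 genes that rose, the kinase Akt1 (0.30) and the catalytic subunit Pik3ca (0.26), lost their calls when single arrays were left out, with adjusted p up to 0.139 for Akt1 (any array other than injected replicate 2) and 0.124 for Pik3ca (any other than injected replicate 2 or not-injected replicate 3).

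For the supply of acetyl-CoA and NADPH, 14 genes were measured, of which 3 rose and 3 fell, and the median was 0.08. Khk, which encodes ketohexokinase of fructose metabolism, fell 2.25-fold (-1.17 ± 0.14, SE), with 11.02, 11.58 and 11.16 in injected livers, against 12.43, 12.49 and 12.34 in not-injected livers. Pyruvate carboxylase, encoded by Pcx, fell by 0.45 ± 0.08. Citrate synthase, encoded by Cs, rose by 0.44 ± 0.06, while its other 2 probe sets did not pass, and the pyruvate dehydrogenase subunit Pdha1 rose by 0.41 ± 0.07. Pyruvate kinase, encoded by Pklr, rose by 0.30 and the NADPH-producing Idh1 fell by 0.31. Pklr lost its call without injected replicate 3, not-injected replicate 1 or not-injected replicate 3 (adjusted p up to 0.0662), and Idh1 without not-injected replicate 2 or 3 (adjusted p up to 0.0547).

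Among 9 regulators and partners of acetyl-CoA carboxylase and fatty acid synthase, 4 rose, 2 fell and 3 did not pass, with a median of 0.13. Mid1ip1, the paralogue of Thrsp that promotes polymerisation of acetyl-CoA carboxylase, fell 2.50-fold (-1.32 ± 0.18, SE, limma adjusted p = 0.00229). It read 8.99, 8.89 and 9.38 in injected livers, against 10.07, 10.49 and 10.67 in not-injected livers, so both Thrsp and its paralogue were lower. Malonyl-CoA decarboxylase, encoded by Mlycd, which removes the product of the carboxylases, rose by 0.37 ± 0.07, in the same direction as Acacb. The enzyme Hlcs, which attaches biotin to the carboxylases, rose 1.66-fold (0.73 ± 0.08), and Stk11, the kinase LKB1 upstream of AMPK, fell by 0.33 ± 0.07, although the mean over its probe sets gave -0.20 (limma adjusted p = 0.103). The AMPK subunit Prkag2 rose by 0.49, with the call lost without not-injected replicate 2 (adjusted p = 0.0525). Cpt1a, which carries fatty acids into mitochondria and is inhibited by malonyl-CoA, rose by 0.42, with the call lost when any array other than injected replicate 2 was left out (adjusted p up to 0.0698).

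Downstream of palmitate, 4 of the 12 desaturases and elongases were called lower and 1 higher, and their median was -0.03. The elongase Elovl3 had the lowest difference in any of these lists, -3.40 ± 0.49 (SE), with 8.57, 10.84 and 10.12 in injected livers, against 13.26, 13.22 and 13.26 in not-injected livers. The injected livers spread widely (SD 1.16), and the difference was -2.76 without injected replicate 1 and -3.90 without injected replicate 2. Elovl2 fell by 0.54 ± 0.06, Elovl5 by 0.44 ± 0.07 and the enoyl reductase Tecr by 0.49 ± 0.09. The desaturase Fads2 rose by 0.67, a call lost without not-injected replicate 1 or 2 (adjusted p up to 0.0633).

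The list for glycerolipid synthesis, which also holds Aacs of acetoacetate use, had 12 measured genes, 4 called higher and 2 lower. Its median was 0.12, and Aacs is among the 4. The acyltransferase Gpam, which starts triglyceride synthesis, fell by 0.61 ± 0.09, and the glycerol 3-phosphate dehydrogenase Gpd1 fell 2.46-fold (-1.30 ± 0.11). Among the other probe sets of Gpd1, those at -0.97 and -0.71 passed and that at -0.06 did not. With the mean of its sets Gpd1 read -0.76. The phosphatidate phosphatase Lpin2 rose 1.74-fold (0.80 ± 0.10), and Aacs, which activates acetoacetate for lipid synthesis, rose 1.59-fold (0.67 ± 0.13). Of the other probe sets of Aacs, that at 0.59 passed and that at 0.05 did not, and the mean of its sets read 0.44. Lpin1 rose by 1.27, a call lost without not-injected replicate 2 (adjusted p = 0.0512). The acyltransferase Dgat1, which makes triglyceride, rose by 0.35, a call lost when any array other than injected replicate 2 was left out (adjusted p up to 0.105).

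Of 10 genes known as targets of ChREBP outside lipogenesis, 5 fell, 3 rose and 2 did not pass, with a median of -0.65. Khk, Gpd1 and Pklr belong to this list as well. The glycogen-targeting subunit Ppp1r3c fell by 2.69 ± 0.16 (SE), the glucose-6-phosphatase gene G6pc by 1.74 ± 0.13. The triokinase gene Tkfc fell by 0.85 ± 0.09. Txnip, which encodes a thioredoxin-binding protein, rose by 1.27 ± 0.18, and the transcription factor Klf10 rose 2.59-fold (1.37 ± 0.10, SE), with 9.40, 9.05 and 9.16 in injected livers, against 7.85, 7.80 and 7.85 in not-injected livers. Of 16 targets of SREBP-2 in sterol synthesis, 8 fell, 1 rose and 7 did not pass, with a median of -0.45. Those with the smallest p were the squalene synthase gene Fdft1 (-0.85 ± 0.09), the sterol carrier Stard4 (-1.09 ± 0.12), the mevalonate enzyme Mvd (-1.33 ± 0.18) and the sterol ketoreductase Hsd17b7 (-0.68 ± 0.10), and all 4 fell. The 1 that rose was farnesyl diphosphate synthase, encoded by Fdps (0.63), and its call was lost without not-injected replicate 2 (adjusted p = 0.0595) and with the mean of its probe sets (0.34, limma adjusted p = 0.0503). Among the other probe sets of Fdft1, that at -0.94 passed and those at -0.21 and -0.04 did not. With the mean of its sets Fdft1 read -0.51.

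**Figure D4:**
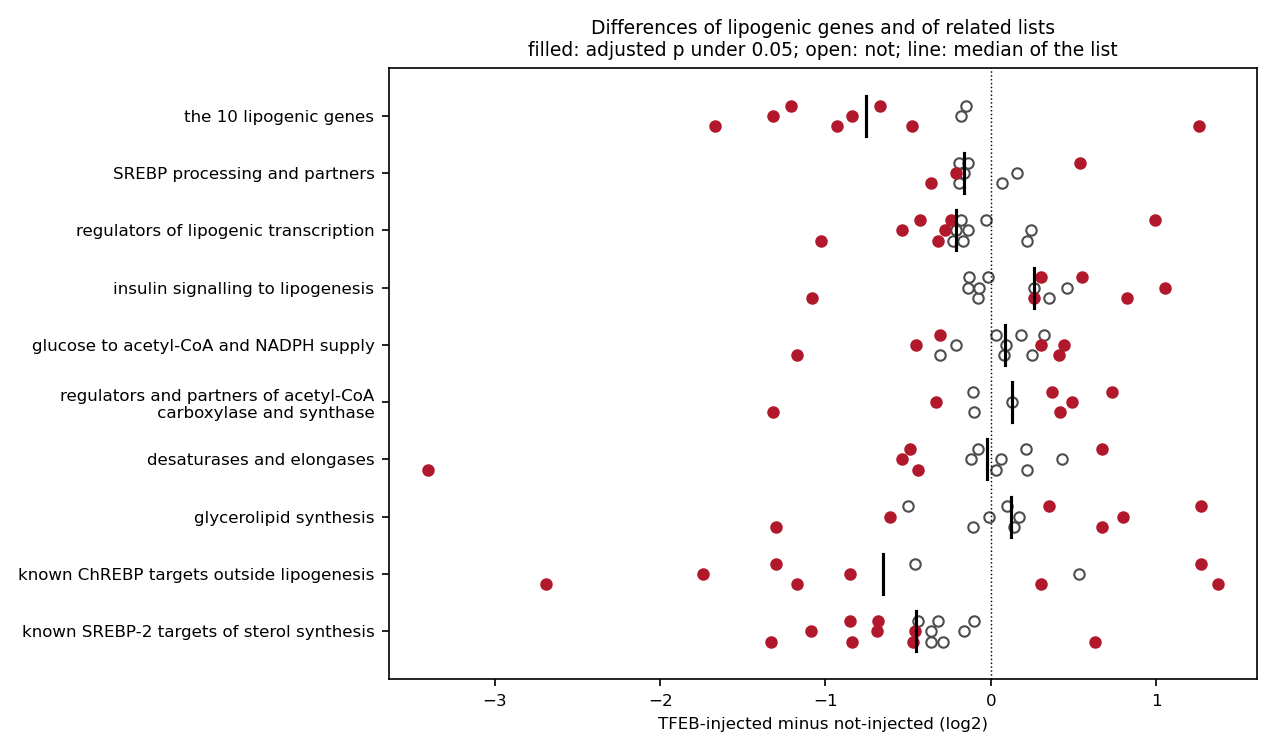
Difference of every measured gene of the 10 lipogenic genes and of the 9 related lists on the log2 scale, TFEB-injected minus not-injected, with the median of each list as a line. The lipogenic genes (median -0.75), the ChREBP targets (-0.65) and the sterol synthesis genes (-0.45) have the lowest medians, and every list holds at least 1 called gene on each side of 0.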

How the data were processed

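Total RNA of 6 livers was turned into biotin-labelled cRNA and hybridised to arrays, per the labels' protocols. The log2 values per probe set are those the authors deposited, and were made with RMA in affy, per the submitters' processing notes. RMA adjusts background, equalises the arrays and combines probes. Filters are not given in the sources used here.

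Of 22690 probe sets, 64 were controls, 20380 had 1 symbol in the platform annotation, 691 several and 1555 none, and only those with 1 symbol were named. Each gene was represented by its brightest probe set, judged by the mean of the 6 arrays. Differences were fitted with limma 3.58.1 (R 4.3.3, lmFit and eBayes, no covariate, no filter on low values, prior degrees of freedom 3.47), two-sided, adjusted over 12393 genes, and again over the 20380 probe sets. No detection calls were given, so no gene was called absent. Precision is limited by the number of arrays, which are biological replicates per the labels. The scripts were tested on simulated data. Exact tests used scipy 1.17.1 and plots matplotlib 3.10.9 under Python 3.11.15.

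The 10 genes, the related lists and the motifs were chosen with earlier results of these data known. The rule named, for each list, up to 4 called genes with the smallest p, and the 5 genes closest to Srebf1. Nr0b2, Klf15, Nr1h3, Akt1, Pik3ca, Pklr, Idh1, Prkag2, Cpt1a, Fads2, Lpin1, Dgat1, Tkfc, Txnip, Fdps, Scap, Srebf2 and the marker genes were named after their values were seen. Alternatives comprised a replicate block, an intensity trend, a filter at the median level, averaged probe sets, adjustment over probe sets, a second quantile normalisation, centring, array weights and leaving out single arrays.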

Additional observations from a re-analysis of the deposited data

How the results depend on the processing

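Under 14 alternatives, Srebf1, Mlxipl, Thrsp, Fasn, Elovl6 and Me1 remained lower and Acacb higher, and these 7 genes passed in each. Acly was weaker without not-injected replicate 3 (-0.60, limma adjusted p = 0.0589). Scd1 passed with an intensity trend (-0.15, limma adjusted p = 0.0274), with the mean of its probe sets (-0.32, 0.0472) and with array weights (-0.17, 0.0477). Acaca passed in none of the 13 that could test it. It fell below the filter at the median level. Of the 10 genes 7 to 9 were called. Leaving out 1 array gave ranges of -1.43 to -1.23 for Srebf1, -2.03 to -1.42 for Thrsp, -0.79 to -0.51 for Acly and 1.15 to 1.33 for Acacb. The ratio of Acacb to Acaca ranged over 1.32 to 1.61, and the 53 calls in the related lists became 40 to 68 when 1 array was left out and 52 to 70 under the other settings. The 3486 calls over all genes ranged from 1973 to 4378 when 1 array was left out, the lowest without not-injected replicate 2, next 2032 (not-injected replicate 3 left out) and 2103 (injected replicate 1 left out). Scap, which was not called, read 0.07 but -0.02 with array weights and -0.05 without injected replicate 2, and ranged from -0.05 to 0.15 over the arrays left out. Of the alternative values of the named genes of the related lists, these 2 of Scap changed sign, 645 stayed on their side of the threshold and 66 lost the call, most when 1 array was left out. A second quantile normalisation ended the calls of Akt1 (0.24), Pik3ca (0.20) and Dgat1 (0.28). Array weights called 14 of the 16 sterol synthesis genes, against 9 with equal weights. With the replicate block 3348 genes were called, and the block changed no call of the 10 genes (Srebf1 -1.32). The labels do not state that the replicate numbers pair the mice, so the numbers were not taken as a pairing. Deviations of same-numbered arrays correlated at 0.14, 0.06 and 0.01 across genes, and those of arrays with other numbers at -0.16 to 0.08. Values near the lower quartile (Acaca) or near the top of the arrays (Scd1) limit what could be seen.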
